A study of Mus musculus with 12 samples.

Results

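The paclitaxel-resistant and vinorelbine-resistant derivatives of the PB3 cell line were compared as 1 group with the parental line. The comparison used 9 of the 12 libraries of the series: 3 of PAC-R, 3 of VIN-R and 3 of Control, chosen by these group labels. The question was what the 2 derived lines share against their parent, and how much a joint comparison adds to the comparison of either line alone. PB3 is a mouse line of triple-negative breast cancer, which lacks the hormone receptors and HER2, and polyadenylated RNA of cultured cells was sequenced. PAC-R cells were PB3 cells made resistant with 300, 500 and 800 nM of paclitaxel, and VIN-R cells were made resistant with the same 3 concentrations of vinorelbine. Control cells were the untreated PB3-Parental line. The third derivative of the series, ERI-R, was made resistant in the same way with eribulin (spelled Erubilin in the labels) and was used only as a further point of reference, since all 3 derivatives descend from the same parent. Each derivative is 1 line, so differences between a line and its parent cannot be told apart from the history of that line. The labels number 3 replicates per line without saying that these were separate cultures, so the spread behind each p-value is that of these samples and may be technical.

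Paclitaxel and vinorelbine act on the same structure in opposite ways. Paclitaxel binds beta-tubulin inside the microtubule and stabilises the polymer, while vinorelbine, a vinca alkaloid, binds tubulin at the end of the microtubule and blocks its growth. Both stall dividing cells at the spindle checkpoint, and both are carried out of cells by P-glycoprotein, an efflux pump that mice encode in Abcb1a and Abcb1b. Other routes described for resistance to such drugs are a changed set of tubulin isotypes, changed microtubule-associated proteins and the passage between an epithelial and a mesenchymal state.

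The 9 libraries held between 11229321 and 13454395 expected counts, which are read pairs assigned to genes by estimation, summed over genes. They fell into sets that the line labels do not give. Transcripts of macrophages, led by the lysozyme gene Lyz2, were high in 6 of them, and Lyz2 was at 0 in PAC-R 3, VIN-R 3 and Control 1. In CPM (counts relative to library size), Lyz2 stood at 1270, 506 and 0 in PAC-R 1 to 3, at 182, 1270 and 0 in VIN-R 1 to 3 and at 0, 698 and 290 in Control 1 to 3. The 14 macrophage markers summed to between 663 and 4710 CPM in the resistant libraries with this RNA and to 33 and 41.9 CPM in those without, against 933 and 2470 CPM in the Control libraries with it and 18.6 CPM in Control 1. In PAC-R 3, VIN-R 3 and Control 1, Cd14 alone made up 37.9, 29.6 and 17 CPM of these sums. The 5 granulocyte markers were low in the same libraries. They summed to 14.5 to 209 CPM in resistant libraries with macrophage RNA and to 8.42 and 9.27 CPM in those without. In Control the granulocyte sums were 23.6 and 77.4 CPM with it and 4.69 CPM in Control 1. Of 7 lymphocyte markers 2 were at 0 in all 9 libraries, and the sum did not pass 2.27 CPM in any. Of 8 adipocyte and erythroid markers 7 were at 0 throughout. Presence of macrophage RNA (Lyz2 above 100 CPM) entered every fit as a yes or no covariate. Its own coefficient was called for 3805 genes higher (28.2%) and 3262 genes lower (24.2%) in the libraries with the RNA. The same libraries also differed in 13 mitochondrially encoded genes. Their mean log2 CPM was 9.05, 8.54 and 8.90 in PAC-R 3, VIN-R 3 and Control 1, against 10.2 to 10.7 in the others. A coefficient of macrophage RNA below is thus a difference between these 2 sets of libraries, and its source was not tested. In such bulk samples a smaller number of cells of a type and less RNA per cell cannot be told apart.

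PAC-R and VIN-R together differed from Control in few genes, and mostly by lower levels. Of 13489 genes tested, 7 were higher (0.0519%) and 28 were lower (0.208%) in the resistant lines, by edgeR's quasi-likelihood test with a threshold of 0.05 on p-values adjusted by the Benjamini-Hochberg method across all genes. The rises included Abcb1a, an efflux pump gene, Cacna1c, a calcium channel, and Aldh3a1, an aldehyde dehydrogenase. The falls included the Notch ligand Jag2, the transcription factors Pax6, Pou3f2, Sox7 and Tox3, the nonmuscle myosin Myh10 and the imprinted gene Sgce. Of the 35 genes, 34 are annotated as protein coding and 33 differed at least 2-fold, and they lie on 17 chromosomes. Adjusted p-values lay between 0.0171 and 0.0499, and 13 of them were above 0.045. Without the covariate for macrophage RNA no gene was called (0 of 13489, with 580 at an unadjusted p under 0.05), and leaving out Control 1, Control 2, Control 3 or PAC-R 3 also left 0 calls (691 to 1880 genes at an unadjusted p under 0.05). Leaving out PAC-R 1 left 14, PAC-R 2 left 6, VIN-R 1 left 19, VIN-R 2 left 3 and VIN-R 3 left 2. DESeq2's Wald test with the same covariate called 224, among them all 35.

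For all 35 genes, every PAC-R and every VIN-R library lay beyond every Control library of the same macrophage status. Over all genes tested, 3.65% were separated in this way with the resistant lines higher and 5.24% with them lower. For 33 of the 35 genes the resistant and Control libraries did not overlap at all, whatever their macrophage RNA; the exceptions were Aldh3a1 and Pou3f2. Over all genes tested, 1.19% were without any overlap with the resistant lines higher and 2.17% with them lower. Calling used these same libraries and the same covariate, so it favours such separation, and these counts are no separate support.

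**Figure D1:**
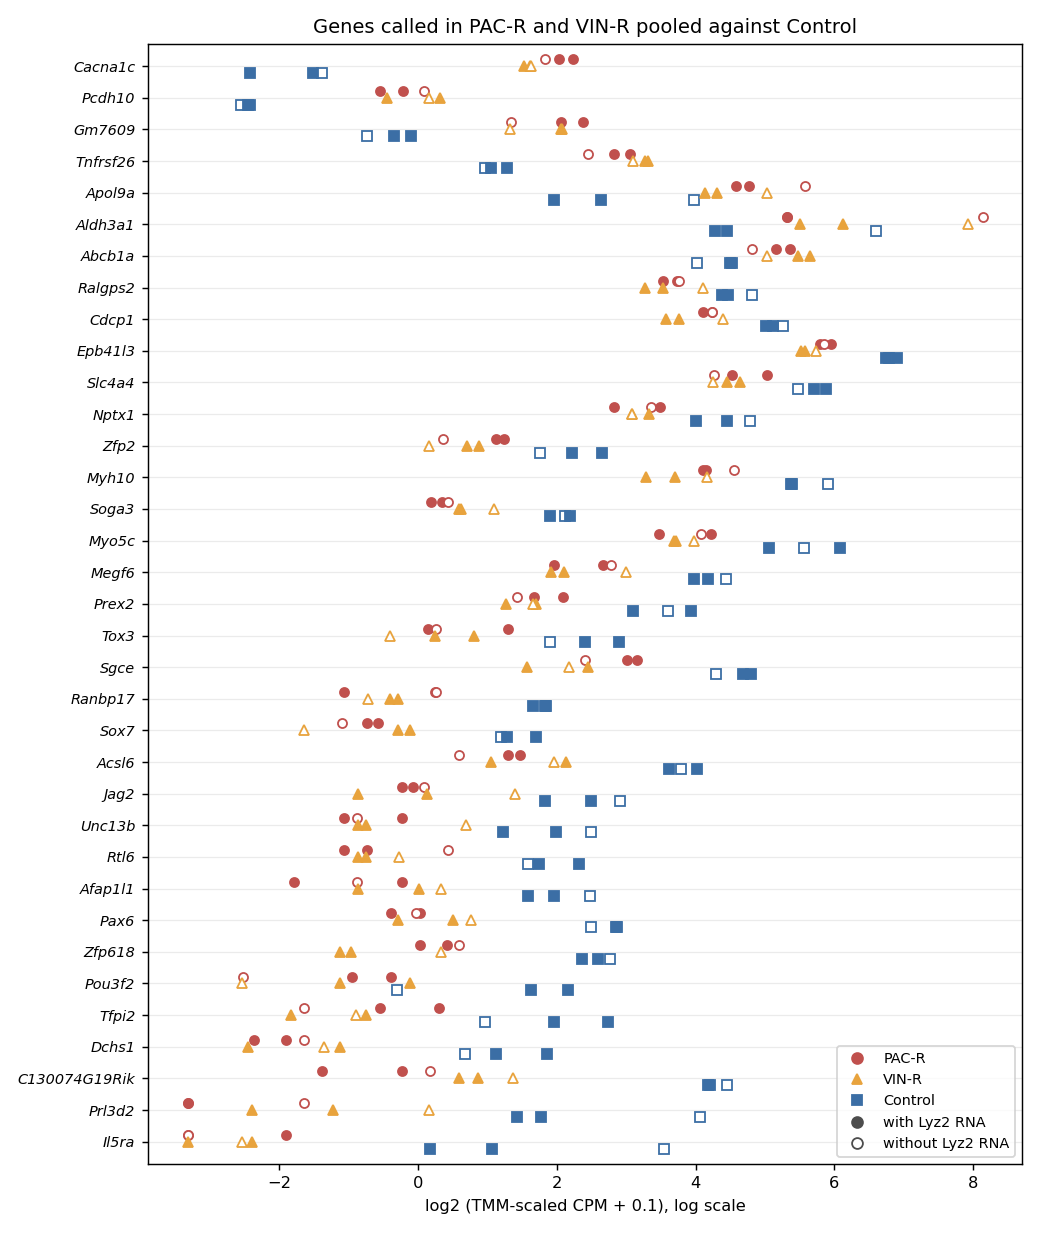
Level of each of the 35 called genes in the 9 libraries, on the horizontal axis as log2 of TMM-scaled CPM plus 0.1, with genes ordered by fold change from the largest rise at the top to the largest fall at the bottom. Circles are PAC-R, triangles VIN-R and squares Control, filled where macrophage RNA was present and open where it was absent; the open Control square lies apart from the filled ones for Prl3d2 and Il5ra.

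The largest rise was in Cacna1c, which encodes the pore-forming chain of an L-type voltage-gated calcium channel (chromosome 6, GRCm38). Its level, in CPM scaled by TMM (trimmed mean of M values, a correction for library composition) over the 9 libraries as for all gene levels below, was 3.97, 4.59 and 3.46 in PAC-R 1 to 3 and 2.96, 2.79 and 2.98 in VIN-R 1 to 3, against 0.284, 0.248 and 0.0859 in Control 1 to 3. The 6 resistant libraries lay close together and far above all 3 Control libraries. The log2 fold change was 3.98 ± 0.41 (SE, n = 6 and 3; edgeR adjusted p = 0.0171), and 252 counts over the resistant libraries stood against 8 over Control. Pcdh10, a protocadherin of cell adhesion, was found with 63 counts over the resistant libraries and 3 over Control. Its CPM ratio was 10.8 (95% counting interval 3.55 to 54.0, which covers counting error only), and its fitted log2 fold change of 3.27 depends on the prior count of the fit (adjusted p = 0.0479).

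Abcb1a was the called gene that bears most directly on both drugs. Its call was kept in only 7 of 22 alternative settings of the pooled comparison. Its level was 35.6, 41.1 and 28.1 CPM in PAC-R and 49.9, 44.6 and 32.5 CPM in VIN-R, against 16.1, 22.4 and 23 CPM in Control. The lowest value of each line came from its library without macrophage RNA, so the level also differed with that RNA. The lowest resistant value came from PAC-R 3 and still lay above the highest Control value. The log2 fold change was 0.91 ± 0.14 (SE, n = 6 and 3; edgeR adjusted p = 0.0458), the smallest rise among the called genes. It was 0.94 in the libraries with macrophage RNA and 0.91 in those without, and in neither set alone was it called (adjusted p = 0.375 and 0.229). Its paralog Abcb1b had 89.0, 92.8 and 67.2 CPM in PAC-R and 87.2, 105 and 88.7 CPM in VIN-R, against 59.2, 68.6 and 70.1 CPM in Control. For Abcb1b the groups overlapped through PAC-R 3, and the log2 fold change of 0.42 ± 0.13 was not called (adjusted p = 0.327). As paralogs the genes resemble each other in sequence, so some read pairs may match both, and how these were assigned was not tested. Of the other efflux pumps fixed by name, Abcc1 had a log2 fold change of 0.10 ± 0.16 and Abcg2 of -0.28 ± 0.19, and neither was called. Of 24 ABC transporters tested, Abcb1a was the 1 called, with a list median of 0.14 beside 0.02 over all genes.

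Tnfrsf26 encodes a surface receptor of the tumour necrosis factor receptor family. Its level was 6.99, 8.18 and 5.37 CPM in PAC-R and 9.55, 9.80 and 8.5 CPM in VIN-R, against 1.85, 2.32 and 1.98 CPM in Control. All resistant libraries stood above all Control libraries, with a log2 fold change of 1.97 ± 0.23 (SE, n = 6 and 3; edgeR adjusted p = 0.0237). Its neighbours and close relatives on chromosome 7, the decoy receptors Tnfrsf22 and Tnfrsf23, had log2 fold changes of -0.14 ± 0.18 and -0.01 ± 0.20 and were not called (adjusted p = 0.745 and 0.987).

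Aldh3a1, which oxidises aldehydes and is counted among the detoxifying enzymes, moved strongly with macrophage RNA as well as with resistance. Its level was 39.7, 39.9 and 282 CPM in PAC-R and 69.6, 45.5 and 244 CPM in VIN-R, against 96.8, 21.8 and 19.3 CPM in Control. The highest value of each line came from its library without macrophage RNA, and the groups overlapped when that RNA was disregarded. Its log2 fold change with resistance was 1.31 ± 0.21 (SE, n = 6 and 3; edgeR adjusted p = 0.0499) and with macrophage RNA -2.37 (adjusted p = 0.00102). It was the only called gene among 38 detoxification genes and NRF2 targets, whose median was 0.26, with 26 of 38 above 0. Among those not called, Mgst2, a microsomal glutathione transferase, had 1.33 ± 0.33 (adjusted p = 0.189) and Gstm2 1.27 ± 0.44 (adjusted p = 0.388).

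Apol9a and Gm7609 completed the rises, and both belong to families of near-identical copies whose shared reads make the single-gene values uncertain. Apol9a, an apolipoprotein L gene, had 27.1, 23.8 and 47.6 CPM in PAC-R and 19.8, 17.4 and 32.5 CPM in VIN-R, against 15.6, 6.12 and 3.78 CPM in Control. It did not overlap between the groups, with a log2 fold change of 1.85 ± 0.27 (SE, n = 6 and 3; edgeR adjusted p = 0.0405). Its copy Apol9b had 1.69 ± 0.29, which was not called (adjusted p = 0.0651). Gm7609 on chromosome 1 is annotated as a transcribed unprocessed pseudogene and is the called gene that is not protein coding. It had a log2 fold change of 2.42 ± 0.25 (adjusted p = 0.0171), at 3.70 ± 1.07 CPM in the 6 resistant libraries and 0.671 ± 0.166 CPM in the 3 Control libraries (SD).

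The largest falls were in genes that Control expressed at low levels. Il5ra, the receptor chain for interleukin 5, had 4 counts over the 6 resistant libraries and 199 over Control. It stood at 0, 0.167 and 0 CPM in PAC-R and 0, 0.0899 and 0.0726 CPM in VIN-R, against 11.6, 1.99 and 1.03 CPM in Control. Control 1 was far above the other Control libraries, and all 3 were above every resistant library. The fitted log2 fold change was -5.95 ± 0.77 (SE, n = 6 and 3; edgeR adjusted p = 0.0253), and -4.29 in the libraries with macrophage RNA alone, which leave Control 1 out (adjusted p = 0.327).

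Prl3d2, a gene of the placental prolactin family, showed the same distribution. It stood at 0, 0 and 0.221 CPM in PAC-R and 0.329, 0.0899 and 1.02 CPM in VIN-R, against 16.6, 3.31 and 2.58 CPM in Control. Control 1 was again the highest library, and VIN-R 3 was the highest of the resistant ones. The log2 fold change was -4.68 ± 0.59 (SE, n = 6 and 3; edgeR adjusted p = 0.0246), and Prl3d2 has close copies with which it can share reads. Both Il5ra and Prl3d2 were also lower in the presence of macrophage RNA, with coefficients of -2.18 and -2.46 (adjusted p = 0.0385 and 0.00978). The part of this RNA in the 2 falls was not tested beyond the covariate.

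The uncharacterised gene C130074G19Rik was called in the pooled comparison and in either line alone. It stood at 0.283, 0.751 and 1.03 CPM in PAC-R and 1.40, 1.71 and 2.47 CPM in VIN-R, against 21.8, 18.1 and 18.3 CPM in Control. All 6 resistant libraries were under 3 CPM while the 3 Control libraries lay close together. The log2 fold change was -3.95 ± 0.40 (SE, n = 6 and 3; edgeR adjusted p = 0.0171), and the gene was called with PAC-R alone (-4.80, adjusted p = 0.0223) and with VIN-R alone (-3.40, adjusted p = 0.0240).

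Some of the falls were in transcription factors and zinc finger genes, grouped here after their values were seen. The share of such genes among all genes tested was not counted. Pax6, a paired-box factor of eye and brain, stood at 0.661, 0.918 and 0.883 CPM in PAC-R and 1.32, 0.719 and 1.60 CPM in VIN-R, against 5.54, 7.20 and 7.13 CPM in Control. The groups did not overlap, and the log2 fold change was -2.70 ± 0.30 (SE, n = 6 and 3; edgeR adjusted p = 0.0193). Pou3f2, a neural POU factor, had -2.76 ± 0.35, with Control 1 at 0.710 CPM under Control 2 and 3 at 2.98 and 4.38 CPM. It was higher in the libraries with macrophage RNA, with a coefficient of 2.53 (adjusted p = 0.00272). Sox7, a SOX factor of endothelium, had -2.31 ± 0.31, the HMG-box factor Tox3 -2.04 ± 0.31, and the zinc finger genes Zfp618 and Zfp2 -2.72 ± 0.35 and -1.52 ± 0.22. Of 15 tested Hox genes, edgeR called 0 (5 at an unadjusted p under 0.05, beside 9.97% of all genes) and DESeq2 1 lower. Hox genes set position along the body axis, and 1 of 15 was above 0 with a list median of -0.63. Hoxa5 had -0.63 ± 0.15 (adjusted p = 0.185) and Hoxa9 -1.49 ± 0.37 (adjusted p = 0.192).

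Further falls were in genes of cell adhesion, signalling and the cytoskeleton, set side by side here after their values were seen. Jag2, a transmembrane ligand of the Notch receptors, stood at 0.850, 0.751 and 0.956 CPM in PAC-R and 0.988, 0.450 and 2.54 CPM in VIN-R, against 7.39, 5.54 and 3.44 CPM in Control. VIN-R 3 came nearest to Control without reaching it, and the log2 fold change was -2.37 ± 0.35 (SE, n = 6 and 3; edgeR adjusted p = 0.0451). It was the 1 called gene among 17 Notch pathway genes, whose median was -0.24. The paralog Jag1 had -0.40 ± 0.25, the receptor Notch1 -0.47 ± 0.29 and the target gene Hes1 0.08 ± 0.28, none of them called (adjusted p = 0.593, 0.595 and 0.907).

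Myh10, the heavy chain of nonmuscle myosin IIB, stood at 17.1, 17.7 and 23.5 CPM in PAC-R and 9.63, 12.9 and 17.9 CPM in VIN-R, against 59.9, 41.5 and 41.7 CPM in Control. The resistant libraries were all under the lowest Control library, and the log2 fold change was -1.54 ± 0.19 (SE, n = 6 and 3; edgeR adjusted p = 0.0243). Epb41l3, a band 4.1 protein that ties membrane proteins to the cytoskeleton, varied little within each line. It stood at 61.7, 55.5 and 57.5 CPM in PAC-R and 45.6, 47.7 and 53.1 CPM in VIN-R, against 110, 107 and 120 CPM in Control, with a log2 fold change of -1.07 ± 0.13 (adjusted p = 0.0237). The actin-based motor Myo5c had -1.76 ± 0.23, the actin-associated Afap1l1 -2.59 ± 0.41, the atypical cadherin Dchs1 -3.43 ± 0.46 and the surface glycoprotein Cdcp1 -1.07 ± 0.16. Cdcp1 averaged 16.8 ± 3.50 CPM in the resistant libraries and 35.0 ± 3.15 CPM in Control (SD, n = 6 and 3). Dchs1 averaged 0.202 ± 0.110 CPM in the resistant libraries and 2.36 ± 1.05 CPM in Control.

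Sgce encodes epsilon-sarcoglycan and is imprinted, with expression from the paternal copy, as is its neighbour Peg10. Sgce stood at 8.78, 7.93 and 5.22 CPM in PAC-R and 5.35, 2.88 and 4.43 CPM in VIN-R, against 19.5, 25.5 and 27.8 CPM in Control, with a log2 fold change of -2.07 ± 0.28 (SE, n = 6 and 3; edgeR adjusted p = 0.0286). Peg10 lies 99 bases from it on chromosome 6 (4747306 to 4760517, GRCm38) and had -1.75 ± 0.31, which was not called (adjusted p = 0.0765), at 2.58 ± 0.956 CPM in the resistant libraries and 8.74 ± 2.05 CPM in Control (SD). Such joint movement of neighbours was looked for around all 35 genes, after the values were seen. Of 70 flanking tested genes, edgeR called 0 (13 at an unadjusted p under 0.05, beside 9.97% of all genes). DESeq2 called 3 of the 70, beside 224 of 13489 genes tested. The sign of the called gene was shared by 36, and 11 differed at least 2-fold, without a share over all genes to set beside it. The median absolute log2 fold change of the 70 was 0.23, beside 0.22 over all genes. The zinc finger genes Zfp354c and Zfp354a on both sides of Zfp2 had -1.46 ± 0.36 and -1.35 ± 0.34 and were not called (adjusted p = 0.189 and 0.206).

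The remaining falls had mixed roles. They were the acyl-CoA synthetase Acsl6 (-2.35 ± 0.31), the bicarbonate cotransporter Slc4a4 (-1.16 ± 0.14), the Rac exchange factor Prex2 (-1.97 ± 0.24), the Ral exchange factor Ralgps2 (-0.90 ± 0.14), the EGF-repeat gene Megf6 (-1.79 ± 0.19), the neuronal pentraxin Nptx1 (-1.24 ± 0.19), the synaptic vesicle priming gene Unc13b (-2.51 ± 0.39), the Kunitz protease inhibitor Tfpi2 (-2.91 ± 0.45), the retrotransposon-derived Rtl6 (-2.59 ± 0.37), Ranbp17, a relative of the nuclear exportins (-2.14 ± 0.34), and Soga3 (-1.57 ± 0.24). These are log2 fold changes with SE in libraries numbering 6 and 3, with adjusted p-values between 0.0193 (Megf6) and 0.0499 (Ranbp17, Soga3, Ralgps2, Nptx1 and Afap1l1). Among the 28 falls, 16 had a Control mean under 10 CPM, and the median Control level was 6.25 CPM. Of all 35 called genes, 5 were also higher and 8 also lower with macrophage RNA, beside 28.2% and 24.2% of all genes tested.

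The sequences upstream of a RefSeq transcript start are shown for genes with large changes, so that these windows can be compared. RefSeq windows (GRCm38.p6) were held for 27 of the 35 genes. For 19 of the genes examined, the first bases after the RefSeq start were also found in a GENCODE transcript of the gene. Printed are the 250 bases before the start for the 2 largest rises and the 3 largest falls among these 19, a choice made after the values were seen, with motifs in capitals. The motifs searched on both strands were the GC box (GGGCGG), the CCAAT box (CCAAT), the TATA box (TATAAA) and the E2 box (CACCTG), none of which overlaps another. The windows are chr6:118757975-118758224 on the minus strand, chr3:45378148-45378397 on the plus strand, chr6:106749038-106749287 on the minus strand, chr1:184883037-184883286 on the minus strand and chr6:3968376-3968625 on the minus strand. The RefSeq start lies at the 5′ end of the GENCODE gene for Pcdh10 and Il5ra and 182 bases into it for C130074G19Rik. It lies 438444 bases inside the gene for Cacna1c and 20544 bases inside it for Tfpi2, so those windows belong to internal starts and not to the outermost promoter. Which start the libraries used was not tested.
Cacna1c: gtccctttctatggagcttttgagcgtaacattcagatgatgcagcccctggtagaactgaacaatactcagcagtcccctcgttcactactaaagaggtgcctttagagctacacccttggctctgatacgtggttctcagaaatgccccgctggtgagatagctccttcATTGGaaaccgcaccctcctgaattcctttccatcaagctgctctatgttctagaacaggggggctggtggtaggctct
Pcdh10: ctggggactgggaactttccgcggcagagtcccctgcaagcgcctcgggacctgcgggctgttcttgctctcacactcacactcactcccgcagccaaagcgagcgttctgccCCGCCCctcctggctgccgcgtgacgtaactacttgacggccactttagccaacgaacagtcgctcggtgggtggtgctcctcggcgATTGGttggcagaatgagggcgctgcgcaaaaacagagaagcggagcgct
Il5ra: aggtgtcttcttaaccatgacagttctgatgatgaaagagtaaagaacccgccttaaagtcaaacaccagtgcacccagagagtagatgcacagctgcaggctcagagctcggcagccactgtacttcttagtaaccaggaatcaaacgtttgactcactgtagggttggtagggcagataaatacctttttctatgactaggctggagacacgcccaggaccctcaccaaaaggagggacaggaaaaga
C130074G19Rik: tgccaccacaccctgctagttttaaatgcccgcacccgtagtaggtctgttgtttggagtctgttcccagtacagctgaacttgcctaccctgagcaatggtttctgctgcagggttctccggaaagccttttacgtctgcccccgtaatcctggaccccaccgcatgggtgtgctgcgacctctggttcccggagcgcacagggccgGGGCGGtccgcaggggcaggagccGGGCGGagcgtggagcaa
Tfpi2: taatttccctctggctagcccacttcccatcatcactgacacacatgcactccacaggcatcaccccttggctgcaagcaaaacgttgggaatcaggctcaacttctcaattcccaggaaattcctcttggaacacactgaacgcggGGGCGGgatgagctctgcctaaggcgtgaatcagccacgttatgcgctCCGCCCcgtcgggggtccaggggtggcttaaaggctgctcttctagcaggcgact
The Cacna1c window held 1 CCAAT box, the Pcdh10 window 1 CCAAT box and 1 GC box, the C130074G19Rik and Tfpi2 windows 2 GC boxes each, and the Il5ra window none of the 4 motifs. Their CpG counts were 5, 22, 15, 11 and 4 in the order Cacna1c, Pcdh10, C130074G19Rik, Tfpi2 and Il5ra. Over the 27 called genes, counting any window of a gene, 63.0% had a GC box, 48.1% a CCAAT box, 3.70% a TATA box and 33.3% an E2 box. Over the 9888 tested genes with a window the shares were 63.8%, 41.0%, 7.89% and 17.6%, and the median number of CpG was 15 in the called genes and 17 in the tested genes. These matches describe letters in a window and were not tested.

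The effect of each line on the 35 genes was taken from 1 fit with a mean per line. Both effects use the same Control libraries, and calling genes on the average favours a shared sign, so the values are given side by side. The median absolute log2 fold change over the 35 genes was 2.07 in PAC-R and 2.2 in VIN-R, and the effect was larger in VIN-R for 21 genes and in PAC-R for 14. The difference between the lines was tested for all genes: PAC-R against VIN-R gave 0 calls (0% of 13489; 352 genes at an unadjusted p under 0.05, smallest adjusted p 0.0707) with edgeR and 34 calls with DESeq2. Of the 35 genes, 6 had an unadjusted p under 0.05 for this difference. Prl3d2 had log2 fold changes of -6.51 in PAC-R and -3.89 in VIN-R against Control, and C130074G19Rik -4.82 and -3.41. Myh10 had -1.29 and -1.84, Sgce -1.74 and -2.49, Zfp618 -2.33 and -3.25, and Tnfrsf26 1.72 and 2.18. None of these 6 differences passed adjustment, which does not show that the lines are alike in them.

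**Figure D2:**
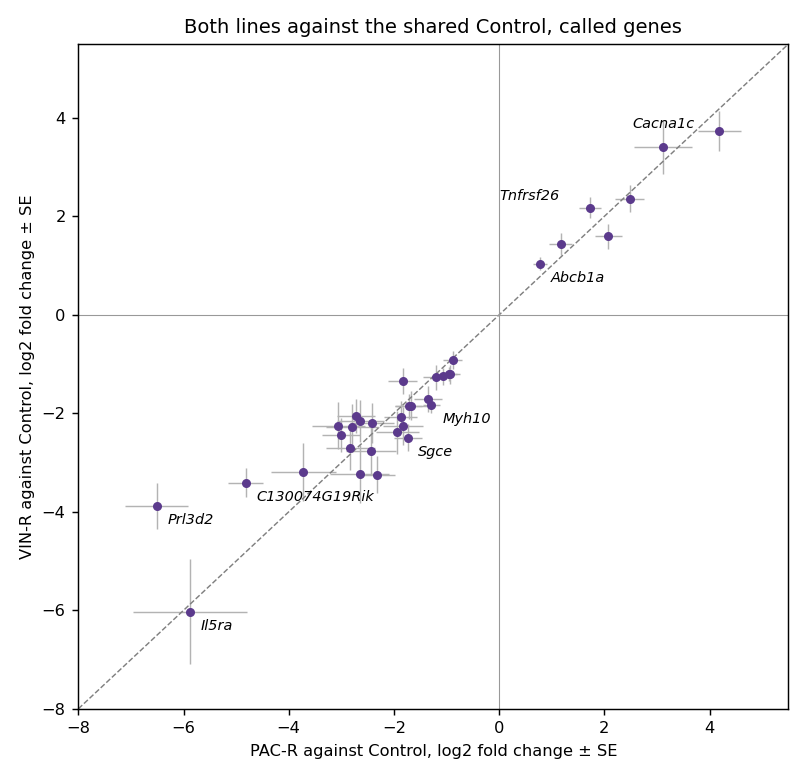
Log2 fold change against the shared Control libraries with its SE, PAC-R on the horizontal and VIN-R on the vertical axis, for the 35 genes called in the pooled comparison. The dashed line marks equal effects; Prl3d2 and C130074G19Rik lie above it among the falls, with smaller falls in VIN-R, and no difference between the lines passed adjustment with edgeR.

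With all libraries, pooling gave more calls than either line alone, and smaller changes were among them. With 1 library left out, the counts were 0 to 19 pooled, 0 to 2 for PAC-R alone and 0 to 26 for VIN-R alone, where 26 came without VIN-R 2, so the order depends on single libraries. PAC-R alone against Control gave 1 higher (0.00761%) and 3 lower (0.0228%) of 13144 genes, with 777 at an unadjusted p under 0.05. VIN-R alone gave 0 higher (0%) and 3 lower (0.023%) of 13025 genes, with 914 at an unadjusted p under 0.05. With both lines pooled, 1345 genes (9.97%) were under that unadjusted threshold, against 5.91% for PAC-R alone and 7.02% for VIN-R alone. The smallest absolute log2 fold change called was 0.90 in the pooled comparison, 3.21 in PAC-R alone and 2.78 in VIN-R alone. Over the 12894 genes tested in all 3 comparisons, the median SE of the log2 fold change was 0.204 pooled, 0.244 in PAC-R alone and 0.237 in VIN-R alone.

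The comparisons differed in their libraries and in their degrees of freedom. Adding 3 resistant libraries lowers the SE to 0.866 of its single-line value from the design alone, since the 3 Control libraries stay the same. The residual degrees of freedom went up as well, to 6 in the pooled comparison against 3 in either line alone, with prior degrees of freedom of 3.16 pooled, 3.56 in PAC-R alone and 3.40 in VIN-R alone. The common biological coefficient of variation did not order the fits in this way, at 0.279 pooled, 0.263 in PAC-R alone and 0.301 in VIN-R alone. When each line kept its own mean but took its spread from all 9 libraries, a setting added after the data were seen, PAC-R gave 3 higher and 2 lower genes and VIN-R 9 higher and 12 lower. The average of both lines in that same fit gave 9 higher and 27 lower genes, of which 27 were among the 35.

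**Figure D3:**
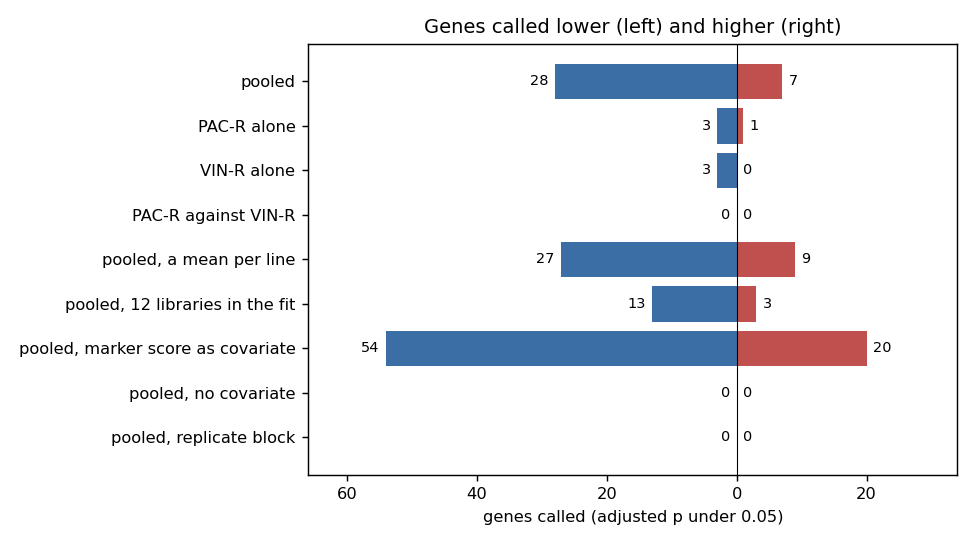
Number of genes called at an adjusted p under 0.05 by each comparison, with falls to the left of 0 and rises to the right. The pooled comparison called 28 lower and 7 higher, either line alone at most 4 in all, and the pooled comparison without the macrophage covariate or with a replicate block 0.

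Of the genes called in a line alone, 4 were not called with both lines pooled, and edgeR called none of the 4 for a difference between the lines. Cavin1, which forms caveolae, stood at 20.2, 19.1 and 25.5 CPM in PAC-R and 3.62, 2.88 and 2.98 CPM in VIN-R, against 3.62, 1.74 and 1.89 CPM in Control. Only the PAC-R libraries stood high, with a log2 fold change of 3.20 in PAC-R alone (edgeR adjusted p = 0.0223), 0.45 in VIN-R alone (adjusted p = 0.877) and 2.39 pooled (adjusted p = 0.444). The difference between PAC-R and VIN-R was 2.75 ± 0.26 and was not called (unadjusted p = 5.24e-06, adjusted p = 0.0707). Col4a6, a chain of basement membrane collagen, stood at 19, 27.6 and 31.3 CPM in PAC-R and 6.75, 5.76 and 5.74 CPM in VIN-R, against 52.4, 35.5 and 38.7 CPM in Control.

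All libraries of Col4a6 were in the order VIN-R, PAC-R, Control from low to high without overlap, and it was called in VIN-R alone (-2.78, adjusted p = 0.0366) but not in PAC-R alone (-0.69, adjusted p = 0.666). PAC-R exceeded VIN-R by 2.07 ± 0.22 on the log2 scale, which was not called (adjusted p = 0.0754). Ildr2, a membrane protein of the angulin family, had 10.5, 8.68 and 11.4 CPM in PAC-R and 3.05, 2.79 and 3.92 CPM in VIN-R, against 35.0, 20.4 and 20.6 CPM in Control, in the same order. It was called in VIN-R alone (-2.93, adjusted p = 0.0240) and had -1.27 in PAC-R alone (adjusted p = 0.214), with a difference between PAC-R and VIN-R of 1.66 ± 0.19 (adjusted p = 0.0997). Cd34, a sialomucin of progenitor and endothelial cells, had 1.89, 1.84 and 2.13 CPM in PAC-R and 4.44, 0.989 and 14.3 CPM in VIN-R, against 24.0, 19.8 and 27.8 CPM in Control. The spread over the VIN-R libraries was wide, and Cd34 was called in PAC-R alone (-3.60, adjusted p = 0.0223) but not in VIN-R alone (-2.29, adjusted p = 0.634). Its difference between PAC-R and VIN-R was -1.48 ± 0.69 (unadjusted p = 0.0656 with edgeR).

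Whether both lines stayed mesenchymal was checked against the parent and against ERI-R. Vim, the mesenchymal filament vimentin, stood at 3510, 2230 and 3850 CPM in PAC-R and 4130, 2390 and 2850 CPM in VIN-R, against 3010, 3340 and 2400 CPM in Control. The groups overlapped throughout, with a log2 fold change of 0.11 ± 0.23 (SE, n = 6 and 3; edgeR adjusted p = 0.840). Of 35 mesenchymal genes tested, edgeR and DESeq2 called 0 (5 at an unadjusted p under 0.05, beside 9.97% of all genes). Of the 35, 20 were above 0 and the median was 0.11. Of 21 transcription factors of the transition, both tools called 0 (4 at an unadjusted p under 0.05), with a median of 0.10. Zeb1 had 0.07 ± 0.17, Zeb2 -0.27 ± 0.44, Snai1 0.28 ± 0.20, Snai2 0.36 ± 0.29, Twist1 0.25 ± 0.17 and Prrx1 -0.83 ± 0.30, Cdh2 (N-cadherin) had -0.39 ± 0.17 and Fn1 (fibronectin) -0.20 ± 0.16.

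No epithelial gene was called with all 9 libraries, though most had a negative log2 fold change. Of 27 tested epithelial junction and identity genes, edgeR called 0 (13 at an unadjusted p under 0.05), and DESeq2 called 3 lower. Over all genes tested, 9.97% were at an unadjusted p under 0.05 with edgeR, and DESeq2 called 133 of 13489 lower. Of the 27, 4 (14.8%) were above 0, beside 52.5% of all genes, and the median was -0.90. That share of all genes above 0 stands beside every list of the pooled comparison. Cldn4, a tight junction claudin, came nearest to a call with -2.68 ± 0.43 (adjusted p = 0.0523), at 2.29 ± 2.10 CPM in the resistant libraries and 11.9 ± 4.34 CPM in Control (SD, n = 6 and 3). Cdh1, E-cadherin, stood at 6.33, 10.1 and 1.77 CPM in PAC-R and 0.905, 3.33 and 0.944 CPM in VIN-R, against 12.7, 11.6 and 6.96 CPM in Control. PAC-R 2 reached into the Control range, and the log2 fold change was -1.69 ± 0.70 (adjusted p = 0.478). Epcam, an epithelial adhesion molecule, had -2.14 ± 0.92 (adjusted p = 0.494). Without Control 1, Cdh1 had -0.84 and Epcam -0.82 (adjusted p = 0.932 for both). In the 3 libraries without macrophage RNA alone, with 1 residual degree of freedom, both were called, Cdh1 at -3.22 (adjusted p = 0.00312) and Epcam at -4.89 (adjusted p = 0.000215). In the 6 libraries with it, Cdh1 had -0.82 and Epcam -0.80 (adjusted p = 0.957 for both). The keratins Krt8 and Krt18 were on the other side of 0, with 0.48 ± 0.33 and 0.48 ± 0.26, neither called. The list median lay between -1.13 and -0.77 when any 1 library was left out.

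Against ERI-R the average of PAC-R and VIN-R differed widely, with 2605 genes higher (18.3%) and 2486 lower (17.5%) of 14226 tested in the fit of all 12 libraries. Vim was higher by 4.50 (adjusted p = 0.000815), Cdh2 by 4.54 and Zeb1 by 4.25 on the log2 scale, and Cdh1 fell by 6.15 and Epcam by 7.0. Of 42 epithelial genes, 4 were higher and 34 lower in PAC-R and VIN-R, and of 35 mesenchymal genes 23 were higher and 4 lower.

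The 35 genes lay on both sides of ERI-R in this contrast, which uses the same PAC-R and VIN-R libraries as the calls. Of the 28 genes that fell against Control, 11 stood above ERI-R, 8 stood below ERI-R and 9 were not called against ERI-R. Of the 7 that rose, 4 stood above ERI-R, 1 (Cacna1c) below it and 2 were not called. Cacna1c averaged 4.06 ± 0.562 CPM in PAC-R, 2.96 ± 0.108 CPM in VIN-R, 7.99 ± 4.36 CPM in ERI-R, against 0.209 ± 0.107 CPM in Control (SD, n = 3 each, scaled over 12 libraries). Its level was thus higher in all 3 derivatives than in the parent, without overlap, and the average of PAC-R and VIN-R was lower than ERI-R by a log2 fold change of -1.16 (adjusted p = 0.0230). Abcb1a averaged 35.4 ± 6.53 CPM in PAC-R, 43.0 ± 9.08 CPM in VIN-R, 2.76 ± 1.68 CPM in ERI-R, against 20.9 ± 3.87 CPM in Control. Myh10 averaged 19.7 ± 3.60 CPM in PAC-R, 13.7 ± 4.26 CPM in VIN-R, 203 ± 8.39 CPM in ERI-R, against 48.5 ± 10.8 CPM in Control, while Sgce averaged 7.41 ± 1.88 CPM in PAC-R, 4.29 ± 1.27 CPM in VIN-R, 0.153 ± 0.153 CPM in ERI-R, against 24.7 ± 4.34 CPM in Control. Abcb1a and Myh10 thus stood on opposite sides of Control in ERI-R and in the other 2 derivatives, and Sgce on the same side.

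**Figure D4:**
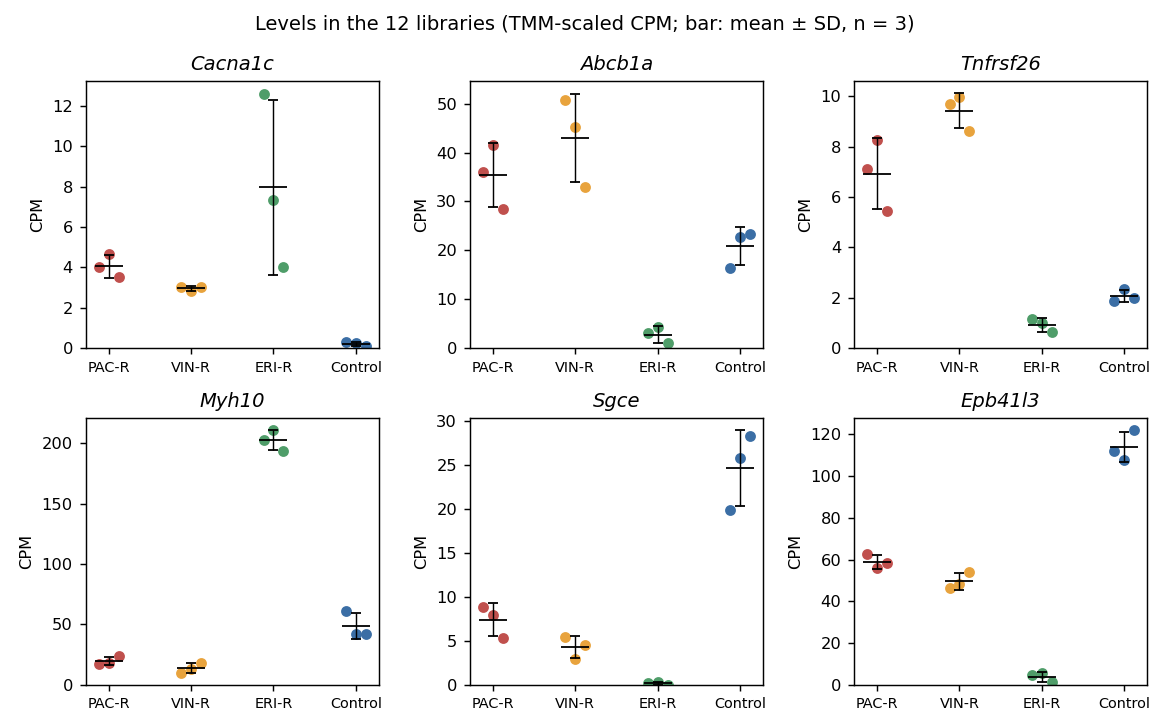
Level of 6 called genes in each library of PAC-R, VIN-R, ERI-R and Control as points, with the mean and SD of 3 libraries as bars, on a linear axis of TMM-scaled CPM that starts at 0. Cacna1c is high in all 3 derivatives, Abcb1a, Tnfrsf26 and Myh10 differ between ERI-R and the other 2, and Sgce and Epb41l3 are low in all 3.

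Genes of the drugs' target did not carry a shared call. Of 15 tubulins, edgeR and DESeq2 called 0 (2 at an unadjusted p under 0.05, beside 9.97% of all genes). The tubulin median was 0.11, with 9 above 0. Tubb3 encodes the neuronal isotype of beta-tubulin and stood at 5.67, 1.59 and 9.49 CPM in PAC-R and 3.79, 1.80 and 6.10 CPM in VIN-R, against 7.60, 8.77 and 4.73 CPM in Control, with a log2 fold change of -0.72 ± 0.44 (adjusted p = 0.589). The groups overlapped. Tubb2b had -0.72 ± 0.31, Tubb2a 0.07 ± 0.23, Tubb6 0.32 ± 0.31 and the alpha-tubulin Tuba1a 0.00 ± 0.36. Close copies among the tubulins can share reads, and how far these genes did was not tested. Of 34 microtubule-associated proteins, edgeR called 0 (5 at an unadjusted p under 0.05) and DESeq2 1 lower, and the median was -0.12, with Map4 at -0.03 ± 0.13 and the tubulin-binding Stmn1 at -0.17 ± 0.27. Of 38 genes of mitosis and the spindle checkpoint, both tools called 0 (3 at an unadjusted p under 0.05), with a median of -0.05. A p that misses the threshold does not show that these genes were alike in both groups.

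Among 37 interferon-stimulated genes, edgeR and DESeq2 called 0 (1 at an unadjusted p under 0.05, beside 9.97% of all genes). Still, 37 of 37 were above 0, with a median log2 fold change of 0.92 beside 0.02 over all genes. Rsad2, an antiviral enzyme, had 1.59 ± 0.85 (adjusted p = 0.560), at 1640 ± 1940 CPM in the resistant libraries and 657 ± 747 CPM in Control (SD, n = 6 and 3). The SD above the mean shows how far the libraries of 1 group lay apart. The mean log2 CPM of the list in PAC-R was 8.09, 6.83 and 2.58, in VIN-R 4.97, 7.88 and 2.57, and in Control 2.24, 6.85 and 5.47. The 14 macrophage markers in PAC-R had 7.91, 6.55 and 0.62, in VIN-R 5.04, 7.86 and 0.56, and in Control 0.42, 6.93 and 5.52. Both lists were low in the same 3 libraries. With a continuous macrophage marker score as covariate in place of presence or absence, the median of the interferon list was 0.39, that of the cytokine and NF-kB list 0.07 beside 0.59, and that of the antigen presentation list 0.26 beside 0.64. The macrophage list itself had -0.14 beside 0.80. The score is the mean log2 CPM of these same 14 markers, so a median near 0 for this list was fixed in advance. The part of the amount of macrophage RNA in these medians was not tested further.

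The epithelial, Hox and Wnt lists kept their medians under the score, at -0.98, -0.63 and -0.41, beside -0.90, -0.63 and -0.41 with presence or absence. Without a filter on low counts the Wnt median was -0.15. Of 31 Wnt pathway genes, edgeR called 0 (15 at an unadjusted p under 0.05, beside 9.97% of all genes) and DESeq2 3 lower. Of the 31, 5 were above 0. The ligand Wnt7a had -2.01 ± 0.37 (adjusted p = 0.0810), the receptor Ror2 -1.31 ± 0.33 (adjusted p = 0.207), the secreted modulator Sfrp1 -0.80 ± 0.22 (adjusted p = 0.250) and the secreted inhibitor Notum 1.02 ± 0.36 (adjusted p = 0.409).

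**Figure D5:**
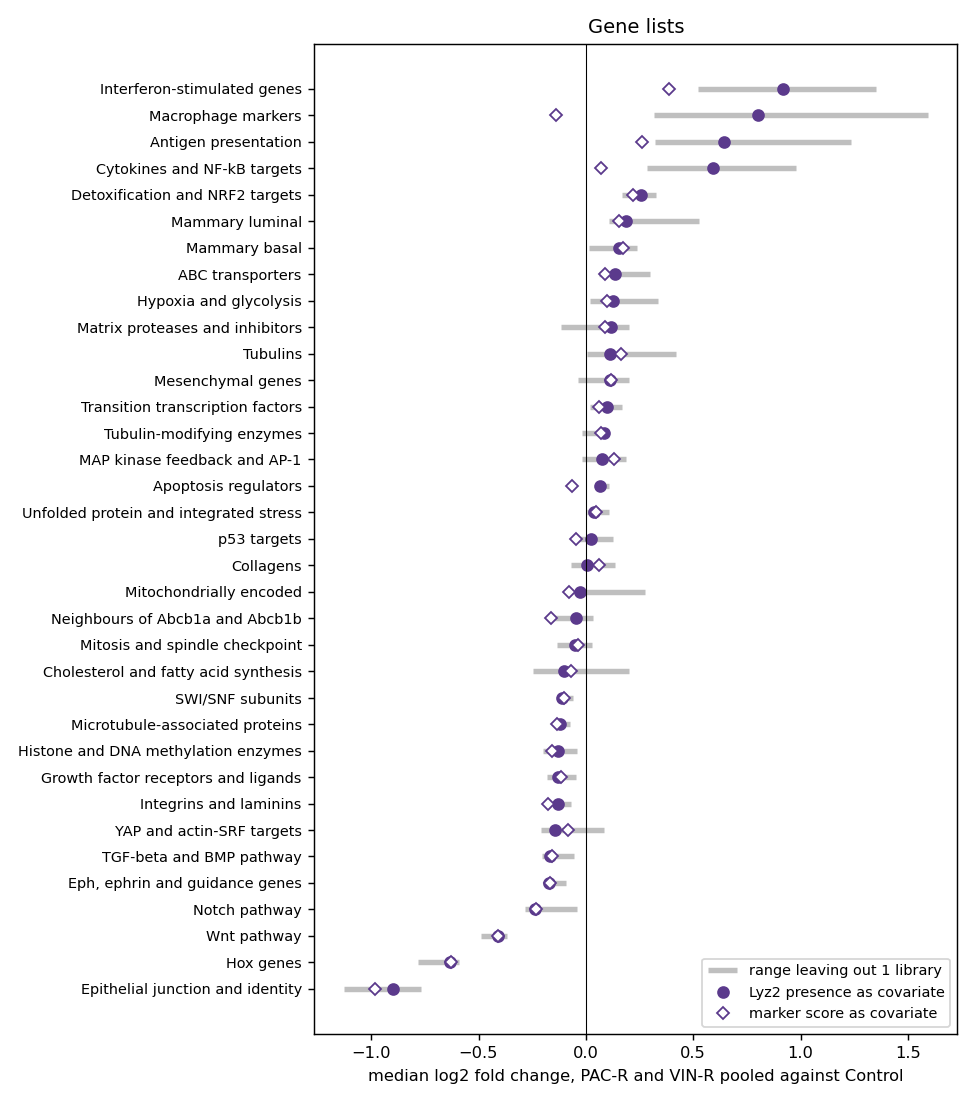
Median log2 fold change of PAC-R and VIN-R pooled against Control over the tested genes of each list with at least 10 tested genes, with presence of Lyz2 RNA as covariate (filled) and with a macrophage marker score (open), and the range when 1 library is left out (grey). The interferon, antigen presentation and cytokine lists move towards 0 with the score, while the epithelial, Hox and Wnt lists stay below 0 under both. The macrophage list also moves towards 0, by construction, since the score is the mean of its markers.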

How the data were processed

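Polyadenylated RNA was sequenced from 200 ng of RNA per sample as paired ends of 76 bases, per the labels' protocols. The submitters' processing notes name the genome build GRCm38 and the tools RSEM 1.3.2, STAR 2.7.2b, cutadapt 2.4 and bcl2fastq 2.20.0.422. Which annotation they used, and whether counting was stranded, is not given in the sources used here. What the authors deposited are RSEM gene results, and per the file headers the expected count is an estimated, not normalized number of read pairs per gene.

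Of 55573 genes, 55480 were matched to GENCODE M21. Expected counts were then rounded to whole numbers; 15.3% of the values above 0 were not whole before. Library totals lay between 11141028 and 13454395, at which 3 counts correspond to 0.223 to 0.269 CPM. No 2 libraries differed by as little as sampling noise (lowest median chi-square per gene of any pair 2.81). Genes were kept with filterByExpr, scaled by TMM and tested with edgeR 4.0.16 (glmQLFit, robust; R 4.3.3, limma 3.58.1) with Benjamini-Hochberg adjustment across the genes tested, calling at an adjusted p under 0.05. The SE is the log2 fold change over the root of F. The pooled comparison took PAC-R and VIN-R as 1 group, with presence of macrophage RNA (Lyz2 above 100 CPM) as covariate here and in every fit unless stated; PAC-R against VIN-R used a mean per line, and ERI-R entered only a fit of all 12 libraries. Alternatives were DESeq2 1.42.0, other scalings, filters and covariates, a replicate block, and leaving out each library. The code was tested on simulated data. Replicate numbers did not pair resistant with Control libraries. Same-numbered PAC-R and VIN-R libraries deviated together from their group means (correlations 0.253, 0.782 and 0.930). PAC-R against VIN-R was fitted without pairing, and a replicate block was run only as an alternative. PAC-R 1 correlated more with VIN-R 2 (0.885) than with VIN-R 1 (0.253), so the correlations do not establish pairing by number. Both libraries numbered 3 lack macrophage RNA.

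The rule for naming genes took the largest changes among called genes separated by library, with 5 CPM or more on average in the higher group, beside called members of 41 lists and 23 genes given whether called or not; the other called genes were added after their values were seen, so that all 35 are described. The comparison, lists and named genes were chosen with earlier results of these data known.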

Additional observations from a re-analysis of the deposited data

Results flagged for a closer look

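Among the 6 resistant libraries, VIN-R 3 stood apart from the other 5 in 3 of 57 genes screened, where chance flags about 1 in 20 groups. The number flagged is thus near what chance gives. The 6 libraries also mix 2 lines and both macrophage states, which the criterion does not allow for. In each case the gap to the nearest library, divided by the whole range, was above Dixon's 95% critical value for 6 samples. Prl3d2, a prolactin family gene, had 1.02 CPM in VIN-R 3, and the nearest library had 0.329 CPM (gap over range 0.676). The Notch ligand Jag2 had 2.54 CPM in VIN-R 3, and the nearest library had 0.988 CPM (0.743). The vesicle priming gene Unc13b had 1.52 CPM in VIN-R 3, and the nearest library had 0.751 CPM (0.675). In all 3 genes VIN-R 3 still lay below every Control library. PAC-R 3, the other resistant library without macrophage RNA, had 0.221 CPM of Prl3d2, 0.956 CPM of Jag2 and 0.441 CPM of Unc13b. Whether the lack of macrophage RNA plays a part was not tested.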

How the results depend on the processing

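The pooled comparison called 35 genes. It called 224 with DESeq2's Wald test, 65 without a filter on low counts, 74 with a continuous macrophage marker score, 75 at an adjusted p under 0.10 (a threshold added after seeing the data), 16 with all 12 libraries in the fit, and 0 without the macrophage covariate or in the libraries with macrophage RNA alone (edgeR, 580 and 772 genes at an unadjusted p under 0.05). DESeq2 size factors left 29, total counts alone 38, a filter of 1 CPM in 3 libraries 24, a mean per line 36, and the libraries without macrophage RNA, which leave 1 residual degree of freedom, 41, of which 9 were among the 35. Where a called gene could be fitted, its direction was kept in every setting, and 35 of 35 calls were kept with DESeq2's Wald test, without a filter and with the score. Leaving out 1 library gave 0 to 19 calls pooled, 0 to 2 for PAC-R alone (4 in full), 0 to 26 for VIN-R alone (3 in full), 0 to 0 for PAC-R against VIN-R and 4388 to 5766 for the average of PAC-R and VIN-R against ERI-R (5091 in full). The causes were not tested. PAC-R alone and VIN-R alone each gave 0 calls without the covariate (312 and 512 genes at an unadjusted p under 0.05), and VIN-R alone gave 21 with the spread taken over 9 libraries, a setting added after seeing the data.

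The replicate block gave 0 calls in the pooled comparison (902 genes at an unadjusted p under 0.05), and 0 in PAC-R alone and in VIN-R alone (120 and 299). Same-numbered libraries of a resistant line and Control correlated between -0.884 and 0.767, so the numbers give no pairing there. For PAC-R against VIN-R, same-numbered libraries correlated positively, but so did PAC-R 1 and VIN-R 2 (0.885). In that comparison the block left 0 calls (250 genes at an unadjusted p under 0.05, against 352 without it). Of 2217 values of named genes and lists under these alternatives, 1707 stayed on their side of the threshold or, for list medians, within the spread between replicates, 447 were no longer called, 2 became called (Cdh1 and Epcam in the libraries without macrophage RNA) and 61 list medians moved. Only values called with all libraries could lose a call, and the 2217 values also hold uncalled genes and list medians. Of 22 alternative settings of the pooled comparison, C130074G19Rik kept its call in 15, Abcb1a in 7, and Ralgps2 and Unc13b in 5 each. These were the highest and lowest numbers among the called genes, beside Abcb1a. Changes of sign numbered 78: 0 were in genes called with all libraries, 26 were in 9 genes that were not called (Tuba1a, Tubb2a, Tubb3, Map4, Stmn1, Zeb1, Zeb2, Snai2 and Lyz2), and 52 were in list medians. Depth limits the genes with few counts, such as Pcdh10 and Il5ra.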
